A study of Mus musculus with 8 samples.

Results

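The genes described here are the aryl hydrocarbon receptor gene Ahr, the gene of its DNA-binding partner (Arnt), its repressor gene Ahrr, its target genes Tiparp, Cyp1a1, Cyp1b1 and Nqo1, and Nfe2l2, which encodes NRF2, the oxidative stress factor that shares target genes with the receptor. These 8 genes were chosen by name, from what is known of the pathway, and with earlier results of these data known. They were read by Entrez ID from a table of 27179 gene rows. All 8 were present, and 4 of them (Ahr, Arnt, Tiparp and Nfe2l2) passed the expression filter. RNA was sequenced from CCR6+ group 3 innate lymphoid cells (ILC3s), lymphocytes of the gut wall that secrete interleukin 22, sorted from the large intestine of C57BL/6 mice at steady state, with 1 library from each of 8 mice. In both groups the 2 alleles of Zbtb46, a zinc finger transcription factor gene, were floxed. The 4 Zbtb46-sufficient mice (Zbtb46f/f, titled wild type, replicates 1 to 4) carried no Cre, and the 4 Zbtb46-deficient mice (replicates 5 to 8) also carried a Cre transgene active in ILC3s, so that Cre and the deletion cannot be told apart in this design. The ages and sexes of the animals are not analysed here.

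The aryl hydrocarbon receptor is a ligand-activated transcription factor of the bHLH-PAS family. Without ligand it is held in the cytosol by HSP90 and its co-chaperones, and once it binds a ligand, such as an indole made from dietary glucosinolates or from tryptophan, it enters the nucleus, pairs with ARNT and binds a DNA element with the core GCGTG. Its classical targets include the cytochrome P450 genes Cyp1a1 and Cyp1b1, which degrade its ligands, and the feedback genes Ahrr and Tiparp. In the gut the receptor is known to be needed for the maintenance of ILC3s and for their production of interleukin 22.

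Library totals ran from 25328231 to 33760743 counts. Zbtb46 lay between 8.02 and 88.9 CPM (counts scaled to the TMM-adjusted sum of the tested genes' counts) in the sufficient libraries and between 0.125 and 4.82 CPM in the deficient ones, with no overlap. The 12 ILC3 markers were present in all libraries and summed to 24543 to 39414 CPM. T cell markers summed to 73.3 to 204 CPM in sufficient and 87.3 to 250 CPM in deficient libraries, NK cell and ILC1 markers to 49.8 to 248 and 189 to 634 CPM, B and plasma cell markers to 5.86 to 140 and 2.10 to 74.4 CPM, and dendritic cell markers to 461 to 780 and 458 to 1172 CPM. Most of the dendritic cell sum was Ccr7, with 365 to 922 CPM. In the same list Xcr1, Ccl17 and Irf8 reached 115, 120 and 25.7 CPM, and Flt3, Itgax and Clec9a had at most 0.380 CPM. Cd8a, Eomes, Prf1 and Ms4a1 stayed at 3 counts or fewer in every library, but other genes of their lists were detected. Trbc2 reached 106 CPM in sufficient replicate 2 and Igkc 114 CPM in sufficient replicate 1. Ncr1 made up 447 of the 634 CPM of NK cell and ILC1 markers in deficient replicate 5. A count of 0 allowed up to 0.0856 to 0.124 CPM, taken as 3 counts. These limits cover counting error alone, since amplified reads that carry no molecular identifier can be copies of the same molecule. Sufficient replicate 1 held 786 CPM of stromal and endothelial markers, sufficient replicate 2 held 1386 CPM of epithelial markers, and deficient replicates 5 and 7 held 335 and 738 CPM of macrophage and neutrophil markers. Values with ± are means and SD over n = 4 libraries, folds are deficient over sufficient, and p-values are from edgeR's quasi-likelihood test over all 8878 tested genes. Nothing ties mice to litters or days, and with 1 library a mouse the spread between mice and that between library preparations cannot be told apart.

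Because the direct targets of the receptor separated into an abundant transcript and near-silent ones, the promoters of both kinds are shown first. Of the 8 genes, 7 had an entry in RefSeq's promoter table for GRCm38.p6, the assembly behind mm10, and Ahr was not among them. The 250 bases before the listed start were searched on both strands for GCGTG, the core of the receptor's element. This core was found in 5 of the 7 windows (Tiparp, Cyp1a1, Ahrr, Cyp1b1 and Arnt) and in 28.2% of all 32851 windows of the same length. The extended form TNGCGTG, which overlaps the core, was found in 1 of the 7 (Ahrr) and in 4.1% of all windows. Below, capitals mark GCGTG or its reverse complement. The windows are chr3:65528197-65528446 on the plus strand for Tiparp, chr9:57697363-57697612 on the plus strand for Cyp1a1, chr13:74292332-74292581 on the minus strand for Ahrr and chr17:79715062-79715311 on the minus strand for Cyp1b1.
Tiparp: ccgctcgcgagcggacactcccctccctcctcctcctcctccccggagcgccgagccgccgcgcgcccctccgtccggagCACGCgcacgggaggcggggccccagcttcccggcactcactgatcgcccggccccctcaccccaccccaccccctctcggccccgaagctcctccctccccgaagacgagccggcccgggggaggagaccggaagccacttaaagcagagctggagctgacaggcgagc
Cyp1a1: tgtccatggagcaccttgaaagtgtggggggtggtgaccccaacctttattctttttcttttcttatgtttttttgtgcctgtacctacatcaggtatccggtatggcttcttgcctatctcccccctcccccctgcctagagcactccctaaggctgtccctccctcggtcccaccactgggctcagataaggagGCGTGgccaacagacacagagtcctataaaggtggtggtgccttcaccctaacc
Ahrr: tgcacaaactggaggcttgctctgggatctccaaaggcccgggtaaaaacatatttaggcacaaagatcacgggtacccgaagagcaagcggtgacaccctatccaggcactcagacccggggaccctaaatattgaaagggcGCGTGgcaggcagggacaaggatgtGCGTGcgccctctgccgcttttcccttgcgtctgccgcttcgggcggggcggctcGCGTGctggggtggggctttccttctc
Cyp1b1: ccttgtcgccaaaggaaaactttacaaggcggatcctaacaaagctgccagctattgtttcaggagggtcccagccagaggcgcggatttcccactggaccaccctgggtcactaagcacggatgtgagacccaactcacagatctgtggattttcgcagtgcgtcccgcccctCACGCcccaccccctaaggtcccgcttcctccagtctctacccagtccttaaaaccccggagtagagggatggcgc

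The core began 170 bases before the start on the opposite strand in Tiparp, 54 bases before it in Cyp1a1, and 107, 82 and 27 bases before it in Ahrr. In Cyp1b1 it lay on the opposite strand, 76 bases before the start. The well-known cluster of receptor elements of Cyp1a1 lies farther upstream than this window. The abundant transcript of this set, Tiparp, had the same number of cores, 1, as the near-silent Cyp1a1 and Cyp1b1. A match in letters is not a binding site, and no binding was measured.

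Ahr (Entrez ID 11622, chromosome 12, 35497979 to 35534989 in GRCm38.p6) was detected in all 8 libraries and was the least even of the 4 tested genes in the sufficient group. It had 278, 126, 84.1 and 5.93 CPM in sufficient replicates 1 to 4 and 23.9, 37.7, 74.5 and 55.9 CPM in deficient replicates 5 to 8. Both the highest and the lowest library were sufficient ones, and the 4 deficient libraries lay between them, so the groups overlapped. The highest sufficient library had 46.8 times the CPM of the lowest, against 3.12 times among the deficient ones. The group means were 123 ± 114 and 48.0 ± 22.0 CPM. Fitted on the log2 scale, the fold was -1.36 (standard error 0.858, 95% interval from -3.27 to 0.55), with an unadjusted p of 0.143 and an adjusted p of 0.9999 in edgeR. The difference did not exceed the spread between libraries, and the interval allows anything from a deep loss to a modest gain.

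The fold of Ahr rested largely on sufficient replicate 1. Without it the log2 fold was -0.59, and without sufficient replicate 4, the lowest library, it was -1.76 with an unadjusted p of 0.0118 and an adjusted p of 0.750 in edgeR. With limma-voom and sample quality weights it was -0.29. Over all alternatives edgeR, DESeq2 and limma gave adjusted p-values for Ahr of 0.516 or more. In sufficient replicate 1 the stromal and endothelial list summed to 786 CPM, of which the matrix gene Dcn made up 687. The collagen genes Col3a1, Col1a2 and Col1a1 had 72.4, 14.5 and 3.64 CPM there, Col1a2 had at most 0.124 CPM in every other library, and Pdgfra had 0 counts in replicate 1. Sufficient replicates 2 to 4 had 51.9, 109 and 115 CPM of that list, while their Ahr fell from 126 to 84.1 and 5.93 CPM. Deficient replicates 5 to 8 had 39.9, 14.0, 417 and 45.4 CPM of it. The highest of these, replicate 7, was also the highest deficient library in Ahr. Of the 7 genes in that list, 1 (Cdh5) stayed at 3 counts or fewer in every library. The part of stromal transcripts in the Ahr values was not tested. In bulk RNA, fewer cells that carry a transcript and less of it per cell cannot be told apart.

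Within-group spread, pooled over both groups, was large for Ahr at its level. On log2(CPM + 1), its SD within groups was 1.70, above that of 87.9% of the 2415 tested genes with a mean within 2-fold of its own, whose median SD was 0.820. The same percentile was 31.6 for Arnt, 60.2 for Tiparp and 64.4 for Nfe2l2. By this pooled measure Ahr varied more from library to library than most genes of its level, and Arnt did not. The spread of Ahr lay mainly in the sufficient group, where CPM differed up to 46.8 times, against 3.12 times in the deficient group. The lowest value, 5.93 CPM in sufficient replicate 4, was a single library.

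**Figure D1:**
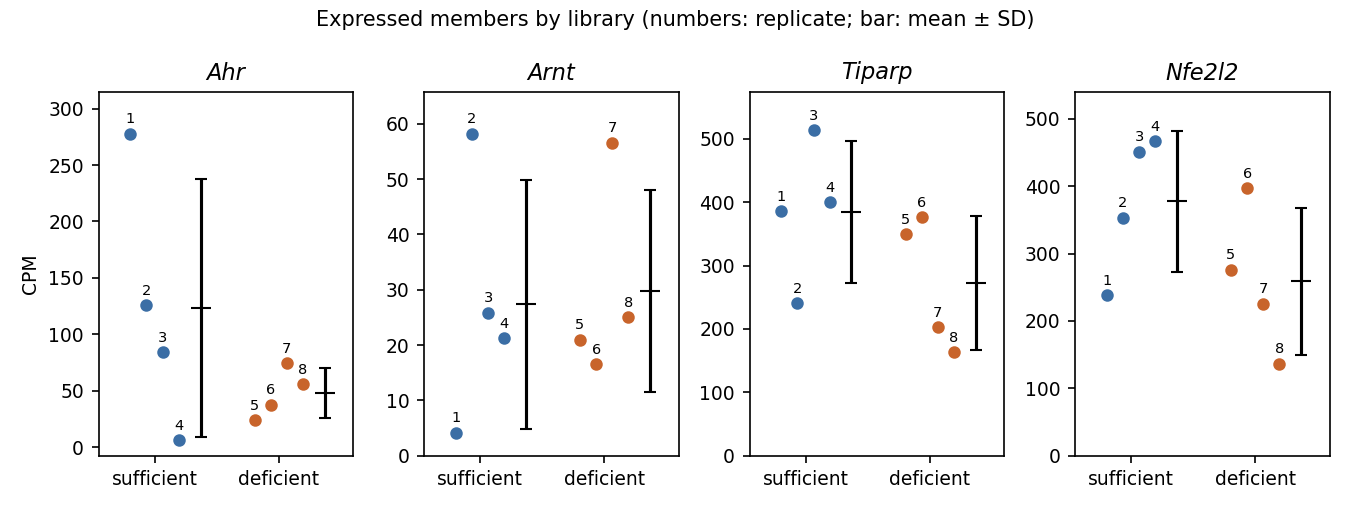
CPM (y axis) of Ahr, Arnt, Tiparp and Nfe2l2 in each library, with blue for Zbtb46-sufficient and orange for Zbtb46-deficient libraries, numbers for the replicate and bars for the mean ± SD of 4 libraries. Ahr spans 5.93 to 278 CPM in the sufficient group, and in each of the 4 genes the groups overlap.

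Arnt (Entrez ID 11863, chromosome 3, 95434367 to 95497240), which encodes the partner that the receptor shares with the hypoxia factors, had similar means in both groups. Its values were 4.15, 58.2, 25.9 and 21.2 CPM in sufficient replicates 1 to 4 and 20.97, 16.5, 56.6 and 24.996 CPM in deficient replicates 5 to 8. Sufficient replicate 1, the highest library in Ahr, was the lowest in Arnt. The means were 27.4 ± 22.6 and 29.8 ± 18.2 CPM, and the fitted log2 fold was 0.12 (standard error 0.935, 95% interval from -1.96 to 2.20), with an edgeR adjusted p of 0.9999. Its sign turned without sufficient replicate 1 (-0.24) or deficient replicate 7 (-0.38).

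The cytosolic complex and the other dimer partners were followed as a list of 8 genes. Of the 7 tested, edgeR called 0 in either direction, 4 had higher and 3 lower fitted values, and the median log2 fold was 0.23, against 0.02 over all tested genes. Hsp90ab1, which encodes a constitutive HSP90 chaperone, had 187 to 467 CPM across the 8 libraries. Arnt2, a paralog of Arnt, had 11.5 ± 8.91 CPM in sufficient libraries against 43.7 ± 37.6 CPM, with a log2 fold of 1.93 and a 95% interval from -0.74 to 4.59. Deficient replicate 6 had 97.3 CPM of Arnt2 against 12.1 to 40.4 CPM in the other deficient libraries, and without it the log2 fold was 1.16. Hsp90aa1 had 83.7 ± 18.4 and 63.5 ± 32.9 CPM. Neither passed, each with an edgeR adjusted p of 0.9999.

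The targets of the receptor were either abundant or close to absent. Tiparp (Entrez ID 99929, chromosome 3, 65528447 to 65555518), whose product TIPARP (PARP7) is a mono-ADP-ribosyltransferase that limits receptor activity, had 386, 241, 514 and 400 CPM in sufficient replicates 1 to 4 and 350, 377, 203 and 163 CPM in deficient replicates 5 to 8. The 2 lowest libraries were deficient replicates 7 and 8 and the highest was sufficient replicate 3, with overlap between the groups in the range from 241 to 377 CPM. The means were 385 ± 112 and 273 ± 106 CPM. Its log2 fold of -0.50 (standard error 0.336) had a 95% interval from -1.24 to 0.25, with an unadjusted p of 0.171 and an adjusted p of 0.9999 in edgeR. As a fold this interval, not adjusted for the number of genes tested, ran from 0.422 to 1.19 times the sufficient level. The RefSeq span of Tiparp overlaps that of 4931440P22Rik, and because it is unknown whether strand was used in counting, reads of both genes may be mixed.

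Tiparp and Ahr ranked the libraries differently. Sufficient replicate 4 had the lowest Ahr, 5.93 CPM, and the second highest Tiparp, 400 CPM. Sufficient replicate 2 had the second highest Ahr, 126 CPM, and the third lowest Tiparp, 241 CPM.

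The remaining 4 target and repressor genes had 4 counts or fewer in all 8 libraries together. Ahrr, which encodes the receptor's competitive repressor, had 1 count in sufficient replicate 2 and 3 in deficient replicate 8. Cyp1a1 had 1 count, in sufficient replicate 2, and Cyp1b1 1 count, in deficient replicate 7. Nqo1, which encodes a quinone reductase driven by both the receptor and NRF2, had 1 count in sufficient replicate 4 and 3 in deficient replicate 5. No library exceeded 0.0939 CPM of any of them, which is within the level that a count of 0 allows, and no fold is given. Of all 27179 rows, 46.1% had 4 counts or fewer in sum, so these genes stood among the many rows without detectable transcript. Sufficient replicate 2, with its 1386 CPM of epithelial markers among them 724 CPM of Muc2, which encodes a goblet cell mucin, held no more than 1 count of Ahrr or Cyp1a1 and 0 of Cyp1b1 and Nqo1.

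**Figure D2:**
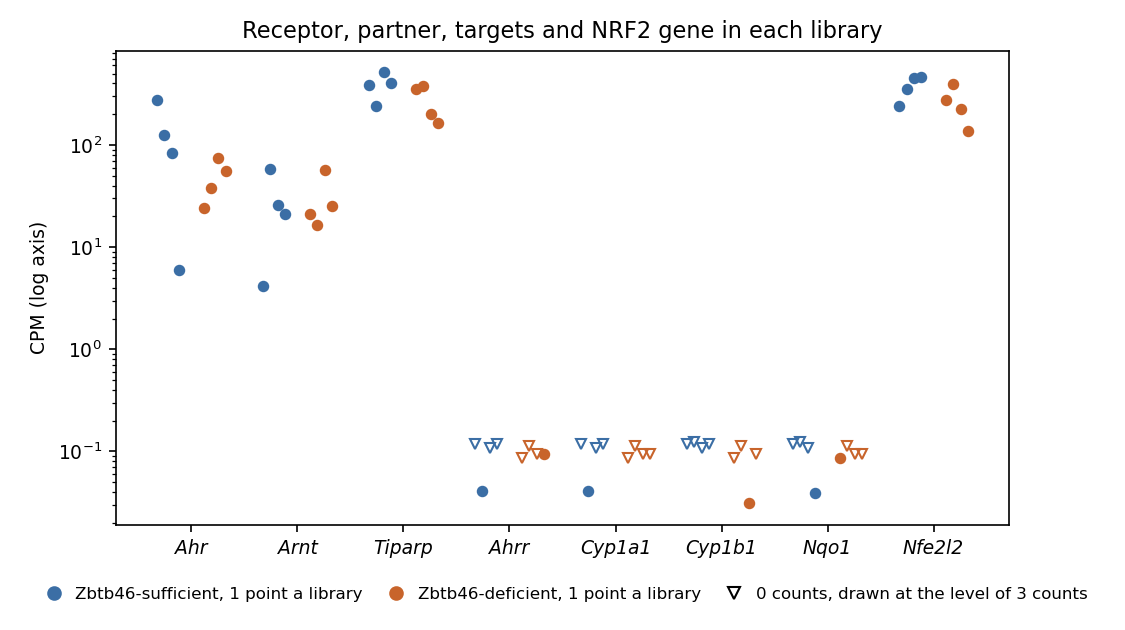
CPM on a log axis of the 8 genes in each library, with blue points for sufficient and orange points for deficient libraries. Open triangles are libraries with 0 counts, drawn at the level of 3 counts, so that a library with 1 count lies below them. Ahr, Arnt, Tiparp and Nfe2l2 lie between 4.15 and 514 CPM, and Ahrr, Cyp1a1, Cyp1b1 and Nqo1 at 0.0939 CPM or less.

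Most of the wider xenobiotic battery did not pass the filter. Of 15 further genes of this kind 3 passed it, where 32.7% of all rows did, and 0 were called in either direction by edgeR. The second P450 gene of the battery, Cyp1a2, had at most 0.124 CPM, and Ugt1a6a, Ugt1a6b, Gsta1, Gsta2 and Cyp2s1 had 0 counts throughout. Other genes that did not pass were detected in single libraries. Aldh3a1, which encodes an aldehyde dehydrogenase, had 35.6 CPM in deficient replicate 5 and at most 0.0414 CPM elsewhere. Gsta3 had 6.52 CPM in sufficient replicate 3 and at most 0.124 CPM elsewhere. Lpcat2 had 2.77 CPM in sufficient replicate 3, 5.73 CPM in deficient replicate 7 and at most 0.248 CPM elsewhere. Nedd9, which encodes a scaffold protein of integrin signalling, had 86.7, 82.95, 76.4 and 128 CPM in sufficient replicates 1 to 4 and 207, 124, 134 and 236 CPM in deficient replicates 5 to 8. The groups overlapped only between sufficient replicate 4 and deficient replicate 6. Its log2 fold was 0.91 (standard error 0.334), with an unadjusted p of 0.0218 and an adjusted p of 0.9999 in edgeR. Por, which encodes the electron donor of microsomal P450 enzymes, had 81.6 ± 45.9 and 53.8 ± 23.4 CPM and did not pass.

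Nfe2l2 (Entrez ID 18024, chromosome 2, 75675513 to 75704663) was detected at 136 CPM or more in each library. It had 239, 353, 451 and 467 CPM in sufficient replicates 1 to 4 and 276, 397, 225 and 136 CPM in deficient replicates 5 to 8. Deficient replicates 8 and 7 were the lowest and sufficient replicates 4 and 3 the highest, and the groups overlapped. The means were 377 ± 105 and 259 ± 109 CPM. Its log2 fold of -0.55 (standard error 0.347) had a 95% interval from -1.32 to 0.23, with an unadjusted p of 0.147 and an adjusted p of 0.9999 in edgeR. Leaving out sufficient replicate 1 and deficient replicate 6 together gave -0.998 with an unadjusted p of 0.0114 and an adjusted p of 0.488 in edgeR, and over all alternatives no adjusted p was below 0.468.

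The promoter window of Nfe2l2 (chr2:75704664-75704913, minus strand) is shown for the antioxidant response element, the kind of site that NRF2 binds with a small Maf protein. The motif TGACNNNGC was searched on both strands and is in capitals. It began 240 bases before the start, and was found in 2 of the 7 windows (Nfe2l2 and Arnt) and in 10.2% of all windows, but not in that of Nqo1. Sequence farther upstream than these 250 bases was not searched, so an element of Nqo1 outside the window would be missed.
Nfe2l2: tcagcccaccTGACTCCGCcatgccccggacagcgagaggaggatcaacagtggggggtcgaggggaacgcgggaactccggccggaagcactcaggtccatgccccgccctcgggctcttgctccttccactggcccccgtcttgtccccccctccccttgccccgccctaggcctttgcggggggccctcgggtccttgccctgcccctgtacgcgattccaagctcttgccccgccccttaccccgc

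In 10 regulators and partners of NRF2, edgeR called 0 of 9 tested genes in either direction, with 6 higher and 3 lower fitted values and a median log2 fold of 0.18. Keap1, whose product marks NRF2 for degradation, did not pass the filter: it had 8.43 CPM in sufficient replicate 3 and at most 0.873 CPM elsewhere. Mafk, which encodes a small Maf partner, had 24.1, 23.1, 17.2 and 7.78 CPM in sufficient replicates 1 to 4 and 67.1, 47.2, 42.1 and 26.2 CPM in deficient replicates 5 to 8, with no overlap, a log2 fold of 1.34 (standard error 0.742) and an edgeR adjusted p of 0.9999. Rbx1, which encodes the RING subunit of the cullin ligase used by KEAP1, had 495 ± 49.5 and 629 ± 50.7 CPM, also without overlap, and a log2 fold of 0.34 with an edgeR adjusted p of 0.9999. Non-overlap was found in 4.36% of all tested genes, and in these 2 of the 67 tested genes of all 9 further lists.

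The NRF2 target list had 0 of 15 tested genes called by edgeR, with 6 higher and 9 lower fitted values and a median log2 fold of -0.05, which was -0.46 without replicates 5 and 7. Its members covered a wide range of levels. Fth1, the ferritin heavy chain gene, had 3628 to 12866 CPM, while Hmox1, Gclm, Slc7a11, Me1 and Gpx2 did not pass the filter. Gpx2, an intestinal epithelial glutathione peroxidase gene, had 101 CPM in sufficient replicate 2, the library with epithelial markers, and 0 counts in the other 7. Txn1, which encodes thioredoxin, had 541, 554, 581 and 466 CPM in sufficient replicates 1 to 4 and 898, 562, 1012 and 904 CPM in deficient replicates 5 to 8, with only deficient replicate 6 inside the sufficient range. Txn1 had a log2 fold of 0.66 (standard error 0.217), an unadjusted p of 0.0128 and an adjusted p of 0.885 in edgeR. Prdx6, which encodes a peroxiredoxin, leaned the other way, with 894 ± 315 and 513 ± 151 CPM, an unadjusted p of 0.0234 and an adjusted p of 0.9999 in edgeR.

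Over the 8 genes and their pathway, no difference between deficient and sufficient ILC3s passed the test. Zbtb46, the deleted gene, did not pass it either. Its log2 fold was -4.31, with an unadjusted p of 0.0124 and an adjusted p of 0.885 in edgeR. A gene that was not called is therefore not shown to be unchanged. With edgeR 0 of the 4 tested genes and 0 of 67 tested genes of the further lists were called at an adjusted p under 0.05, where 0% of the 8878 tested genes were called. At an unadjusted p under 0.05 there were 0 of 4 and 4 of 67 (Ncoa2, Nedd9, Txn1 and Prdx6), against 4.1% of all tested genes. DESeq2 gave an adjusted p to 4 of the 8 genes and called none of them, and none of the further lists. Over all genes it called 374, 3.26% of the 11478 to which it gave an adjusted p, and limma-voom called 0 genes in all. Of the 4 tested genes 3 had lower fitted values, with a median log2 fold of -0.52, against 49.1% lower and a median of 0.02 over all tested genes.

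**Figure D3:**
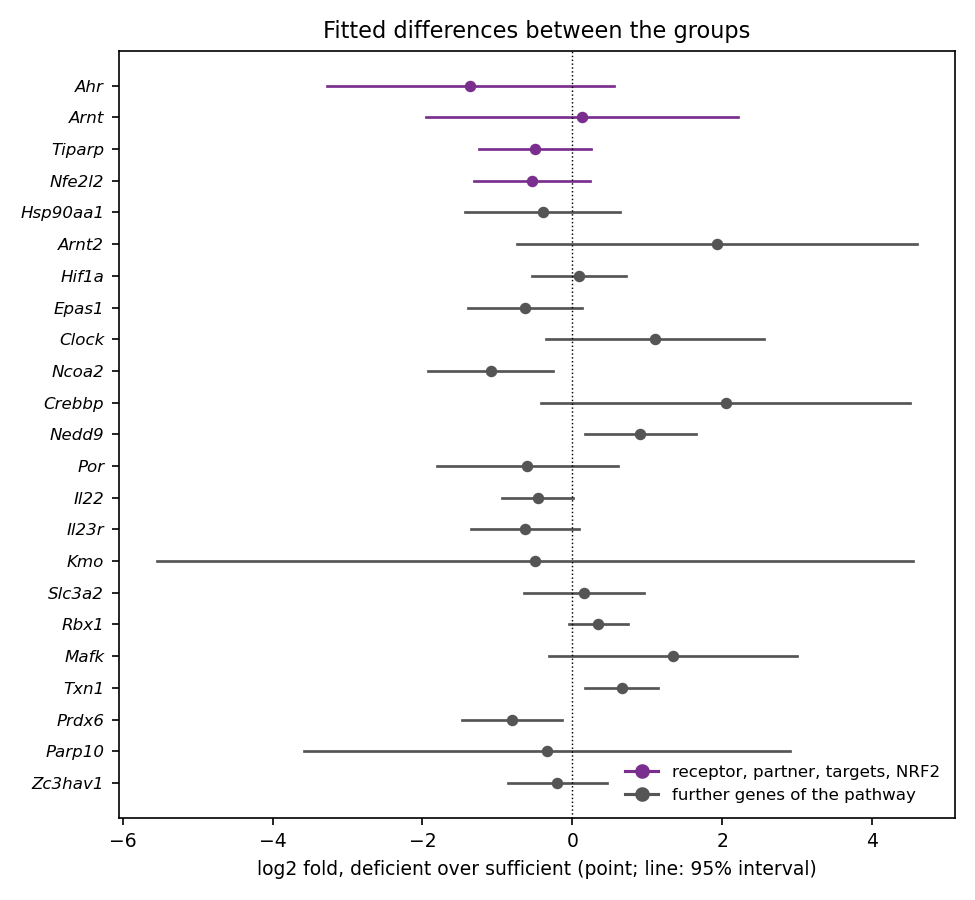
Fitted log2 fold, deficient over sufficient (x axis), with its 95% interval, for the 4 tested genes of the set (purple) and the named genes of the further lists (grey). The intervals of Ahr, Arnt, Tiparp and Nfe2l2 all include 0, and those of Ncoa2, Nedd9, Txn1 and Prdx6 do not, before adjustment over all genes.

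The order of the levels was compared per length, as CPM per kilobase of exon (union of GENCODE M21 exons). In sufficient libraries Nfe2l2 had 99.4 ± 27.7, Tiparp 88.4 ± 25.7, Ahr 20.03 ± 18.6 and Arnt 3.42 ± 2.82 CPM per kilobase, and in deficient libraries 68.1 ± 28.7, 62.7 ± 24.3, 7.79 ± 3.57 and 3.72 ± 2.27. The order was the same in both groups. Within libraries Nfe2l2 exceeded Tiparp in 5 of 8, so these neighbours did not differ beyond their spread. Tiparp exceeded Ahr in 8 of 8 libraries, by 1.96 to 95.2 times, and Ahr exceeded Arnt in 7 of 8, all but sufficient replicate 4. The transcript of the receptor's feedback enzyme was thus denser than that of the receptor in every library.

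Factors that use ARNT or belong to the same family were measured as a list of 8, of which 4 were tested, 0 called by edgeR, 3 with higher and 1 with lower fitted values, and a median log2 fold of 0.59. Hif1a, the hypoxia factor gene, had 343 to 741 CPM and means of 480 ± 179 and 509 ± 109 CPM. Epas1, which encodes HIF-2α, had 144 ± 26.9 and 92.9 ± 30.3 CPM, with a log2 fold of -0.63 and an edgeR adjusted p of 0.9999. Clock, a bHLH-PAS gene of the circadian oscillator, had 30.3 ± 11.4 and 64.9 ± 38.1 CPM and did not pass.

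Corepressors and coactivators of the receptor were all tested, 10 of 10, with 0 called by edgeR, 5 with higher and 5 with lower fitted values and a median log2 fold of 0.07. Ncoa2, a p160 coactivator gene, had 222, 251, 107 and 155 CPM in sufficient replicates 1 to 4 and 112, 81.3, 98.0 and 53.1 CPM in deficient replicates 5 to 8, with overlap only between sufficient replicate 3 and deficient replicate 5. Its log2 fold was -1.09 (standard error 0.373), with an unadjusted p of 0.0150 and an adjusted p of 0.953 in edgeR. Crebbp, which encodes a histone acetyltransferase, had 15.8 ± 15.7 and 65.1 ± 61.0 CPM and did not pass. Deficient replicate 6 had 153 CPM of Crebbp, and without it the log2 fold was 1.18 in place of 2.05.

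Genes of ILC3s known to depend on the receptor were set beside Ahr in the same libraries. Of 9 such genes 8 were tested and 0 called by edgeR, with 4 higher and 4 lower fitted values and a median log2 fold of -0.04, which was -0.47 without replicates 1 and 6. Il22 had 15031, 25512, 20456 and 23954 CPM in sufficient replicates 1 to 4 and 13727, 13570, 15425 and 18953 CPM in deficient replicates 5 to 8. The library with the least Ahr, sufficient replicate 4, had the second highest Il22, and the library with the most Ahr, sufficient replicate 1, the lowest sufficient Il22. Other libraries went the other way. Sufficient replicate 2, second highest in Ahr, had the most Il22, and deficient replicates 5 and 6 had less of both genes than deficient replicates 7 and 8. A link between the 2 genes was not tested. Il22 had an unadjusted p of 0.0543 and an adjusted p of 0.9999 in edgeR. Il23r, encoding the interleukin 23 receptor, had 3331 CPM in sufficient replicate 4, its highest value, and did not pass.

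**Figure D4:**
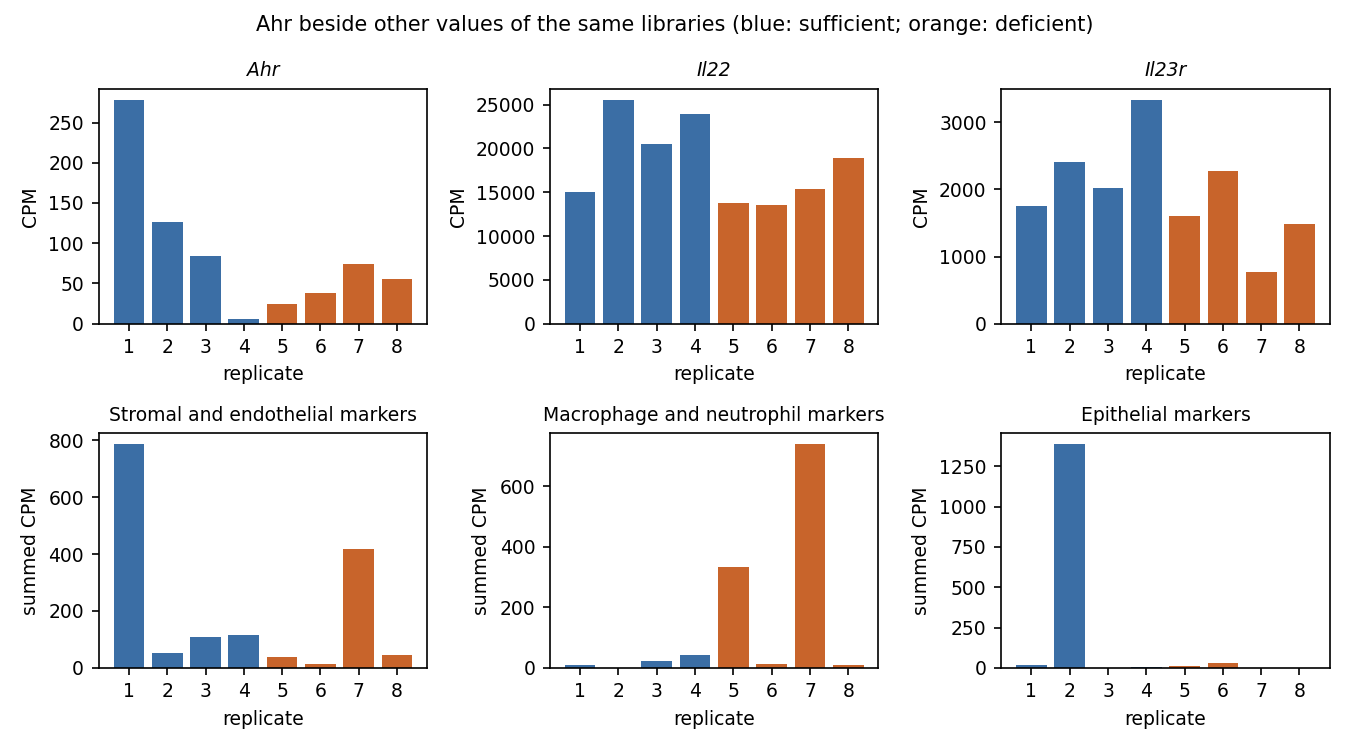
CPM of Ahr, Il22 and Il23r (upper row) and summed CPM of 3 marker lists (lower row) in each of the 8 libraries, blue for sufficient and orange for deficient. Sufficient replicate 1 has the most Ahr, 278 CPM, and the most stromal and endothelial markers, 786 CPM. Sufficient replicate 4 has the least Ahr, 5.93 CPM, and the second most of these markers in its group, 115 CPM.

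Of 8 genes that form or handle receptor ligands 3 were tested and 0 called by edgeR. The median log2 fold was -0.47, but its sign turned, to 1.82 without sufficient replicate 1 and to 0.16 when genes had to reach 5 CPM in 4 or more libraries. Ido1, Ido2 and Il4i1, which encode tryptophan-degrading enzymes, had at most 0.0313 CPM. Tdo2, another gene of this kind, had 3.10 CPM in sufficient replicate 3 and at most 0.236 CPM elsewhere. Kmo, a kynurenine pathway gene, had 23.2 CPM in sufficient replicate 1 and 16.8 CPM in deficient replicate 8 against at most 4.05 CPM elsewhere. Slc3a2, which encodes a subunit of the amino acid transporter that carries tryptophan and kynurenine, had 301 ± 111 and 336 ± 126 CPM, while the gene of its partner chain Slc7a5 reached 6.23 CPM in deficient replicate 8 and at most 0.344 CPM elsewhere.

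Relatives of TIPARP among the PARP enzymes were uneven. Of 9 genes 8 were tested and 0 called by edgeR, with 2 higher and 6 lower fitted values and a median log2 fold of -0.10. That median was -0.54 without deficient replicate 6, -0.88 with limma-voom and 0.31 without deficient replicates 5 and 7. Zc3hav1, encoding an antiviral zinc finger protein, had 215 ± 56.1 and 187 ± 53.3 CPM, and Parp10 had 14.0 ± 13.7 and 11.05 ± 13.5 CPM.

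The genes whose values followed those of each abundant member most closely were found by Pearson's r of log2(CPM + 1) over the 8 libraries, among the 6694 other genes that averaged 10 CPM or more. For Ahr these were Ttc39b (r = 0.941), Nek9 (0.932), Pak2 (0.917), Tmem170b (0.912) and Rps21 (0.911). For Tiparp they were Zfp871 (0.956), Usp14 (0.931), Dbf4 (0.926), Dsn1 (0.924) and Dancr (0.916), and for Nfe2l2 Ccdc184 (0.945), Tle3 (0.944), Gstt2 (0.942), Gtf3c2 (0.935) and Tfrc (0.918). Without sufficient replicate 1 and deficient replicate 6, r over the 6 libraries left was 0.876 to 0.970 for the genes like Ahr, 0.921 to 0.966 for those like Tiparp and 0.942 to 0.989 for those like Nfe2l2. These are the highest of many values over few libraries that share groups and library quality, and are given as a description.

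**Figure D5:**
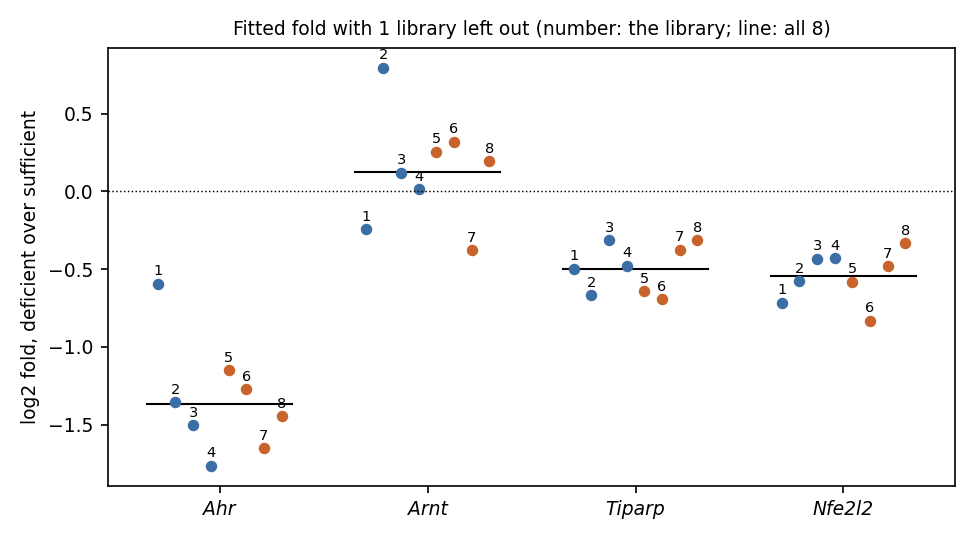
Fitted log2 fold, deficient over sufficient (y axis), of Ahr, Arnt, Tiparp and Nfe2l2 with 1 library left out, the number naming that library and the line giving the fit of all 8. Ahr moves to -0.59 without replicate 1, Arnt changes sign without replicate 1 or 7, and Tiparp and Nfe2l2 stay below 0 throughout.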

How the data were processed

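Gene expression was measured by RNA-seq in 8 libraries. Per the labels' protocols, cDNA was made with a SMARTer ultra-low-input kit. CASAVA 1.8.2, STAR 2.3.0 and the build mm10 are named in the submitters' processing notes. Which program counted the reads, against which annotation and with which strand setting, is not stated in the labels. The authors deposited raw counts per Entrez gene ID, without normalization. Of 27179 rows, 25275 were matched to a symbol through RefSeq (GRCm38.p6), and 7889 had 0 counts in all libraries.

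Groups came from the sample titles. Counts were fitted over the whole table with edgeR 4.0.16 (R 4.3.3): filterByExpr by group, TMM factors, quasi-likelihood F test, Benjamini-Hochberg adjusted p under 0.05. CPM used TMM-scaled sums of tested genes. Standard errors were derived from the F statistic, and 95% intervals from its degrees of freedom. The test was run on simulated data with known folds first. Alternatives were RLE, upper-quartile and no factors, DESeq2 1.42.0, limma-voom (limma 3.58.1) with sample quality weights, robust dispersions, no filter, at least 5 CPM in at least 4 libraries, each library left out, replicates 1 and 6 left out, and replicates 5 and 7 left out. The genes and lists were chosen with earlier results of these data known. Named in addition were, from each list, the 2 tested genes with the smallest p, and Keap1 and Hif1a. Some list and marker genes were counted in their lists but are not reported here. Other list genes were singled out after their values were seen. Marker lists covered ILC3s and the other cell types named with their sums.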

Additional observations from a re-analysis of the deposited data

Results flagged for a closer look

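A single library distant from the remaining 3 of its genotype was looked for in 70 groups of values of the named genes that passed the filter, the marker lists and the number of detected genes. For normally distributed values chance gives about 1 in 20, or 3.5, and 8 stood out. Gene and marker values were compared as CPM without logs, and skewed values are flagged more often than that. The 8 are therefore not shown to be an excess. None concerned Ahr, Arnt, Tiparp or Nfe2l2. Kmo had 16.8 CPM in deficient replicate 8 against 0.344 to 1.54 CPM in the other deficient libraries. The ILC2 markers summed to 52.0 CPM in sufficient replicate 2 against 0.943 to 1.45 CPM, and deficient replicate 7 had 28.2 CPM of them against 0.438 to 3.77 CPM. Mast cell markers summed to 3.23 CPM in sufficient replicate 2 against at most 0.0721 CPM, and deficient replicate 6 had 66.2 CPM against 0 CPM. The epithelial markers of sufficient replicate 2 summed to 1386 CPM against 1.51 to 14.9 CPM. For stromal and endothelial markers the sum was 786 CPM in sufficient replicate 1, with 51.9 to 115 CPM in the rest of that group, and 417 CPM in deficient replicate 7, with 14.0 to 45.4 CPM in the rest.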

How the results depend on the processing

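No paired analysis was possible because replicate numbers run from 1 to 8 and none is shared between the groups. In all 18 alternatives 0 of the 8 genes and 0 genes of the further lists were called. Over all genes the count moved from 0 to 374 with DESeq2 (240 higher, 134 lower) and to 2 without a filter (Med31 and Il6), and ranged from 0 to 2 with 1 library left out, the 2 being Eprs and Cdk11b without replicate 6. The log2 fold kept its sign in every alternative for Ahr (-1.76 to -0.29), Tiparp (-0.70 to -0.31) and Nfe2l2 (-0.998 to -0.33). That of Arnt ranged from -0.38 to 0.80 with 1 library left out, and was -0.031 without replicates 1 and 6 and -0.39 without replicates 5 and 7. With 1 library left out the log2 folds ranged from -0.065 to 0.37 for Hif1a, -0.045 to 0.35 for Slc3a2, -3.07 to 1.82 for Kmo and -1.63 to 0.54 for Parp10. Kmo turned to 2.85 with limma-voom. Without replicates 1 and 6 values turned to -0.10 for Hif1a, 2.23 for Kmo and 0.056 for Zc3hav1, and without replicates 5 and 7 to 0.35 for Kmo and 0.41 for Parp10. None of these genes passed, and the cause was not tested. No factors and limma-voom set the median log2 fold of all genes at 0.11. Ahrr, Cyp1a1, Cyp1b1 and Nqo1 had at most 3 counts in every library, and whether deeper sequencing would detect them was not tested.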
